A study of Mus musculus with 10 samples.

Results

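Of the 25 genes of branched-chain amino acid breakdown examined in inguinal white adipose tissue (iWAT), the transcripts of 1 changed with diet past the test's threshold. *Bcat2*, which encodes the mitochondrial aminotransferase of the first step, was lower in males fed a low-protein diet (LPD) than in males fed the control diet (CD). In those males 2.5% of the 14581 genes tested passed the threshold, 1.32% as lower. The *Bcat2* call held under 10 of 11 alternative settings and rested on single libraries. In the male offspring of such fathers, *Bcat2* overlapped between the paternal diets. There 0 of the 25 genes passed the threshold, against 1.17% of the 14049 genes tested. The 10 genes described in full were taken by name from the deposited tables, all were found, and they are 10 of 51826 genes listed, of which 33120 have an exon length. They are *Bcat2*, *Bckdha*, *Bckdhb*, *Dbt*, *Bckdk*, *Pcca*, *Pccb*, *Mccc1*, *Mccc2* and *Hibadh*, and all 10 passed the filter on low counts in both generations. The other 15 genes belong to the same route.

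RNA-seq was done on iWAT of male C57BL/6 mice in 4 groups. F0-CD (n = 2) and F0-LPD (n = 2) were males aged 10 to 12 weeks that had eaten the CD or the LPD since weaning. F1-CD (n = 3) and F1-LPD (n = 3) were sons, aged 5 weeks, of fathers on the CD or the LPD, and these sons, like their mothers, ate the CD themselves. By a figure legend of the study the F1 libraries of a group came from mice with different mothers. Whether each of these sons also had a different father is not stated, so F1 p-values measure the spread between sons. For F0 nothing beyond the labels says that libraries are separate mice, and p-values there measure the spread between these libraries.

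Leucine, isoleucine and valine lose their amino group to an aminotransferase, and the keto acids that remain are decarboxylated by the branched-chain keto acid dehydrogenase complex of the mitochondrion, which a kinase switches off by phosphorylation. From there the carbon of leucine goes by way of methylcrotonyl-CoA to acetyl-CoA and ketone bodies, while that of valine and isoleucine goes by way of propionyl-CoA to succinyl-CoA. Fat cells carry the whole route, and it becomes more active as preadipocytes turn into adipocytes.

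Total exon reads per library lay between 6351075 and 10044546. Expression is given as CPM, exon reads scaled to the size of the library. The least taken as detected, 3 reads, equalled 0.299 to 0.472 CPM, a floor for counting error only, and each of the 10 genes had at least 366 exon reads in every library. The F1-LPD libraries stood apart from the others before any gene was compared. Exons took 39.3% to 45.4% of the reads on genes in F1-LPD, 49.2% to 51.2% in F1-CD and 51.4% to 54.7% in F0, and mitochondrial rRNA took 13.5% to 18.2% in F1-LPD against 9.29% to 12.4% in the other groups. CPM values were scaled by TMM within each generation, and group values are mean ± SD. Generation, age and library set coincide and cannot be told apart. All 8 adipocyte markers listed, among them *Adipoq* and *Plin1*, were detected in every group, with a summed level of 11287 to 18772 CPM.

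The 250 bases before the start of *Bcat2* are shown because it is the gene that changed, and those of *Mccc2* because it was the only one of the 9 genes with an entry in the promoter table that held an E-box (CACGTG), and it had the lowest adjusted p among the 10 genes in F1. *Dbt* is not in that table. Sequences are from RefSeq (GRCm38.p6), read 5′ to 3′ in the direction of the gene, and capitals mark a CACCC box (CACCC, here read on the other strand as GGGTG) or the E-box.

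*Bcat2*, chr7:45569903-45570152, plus strand: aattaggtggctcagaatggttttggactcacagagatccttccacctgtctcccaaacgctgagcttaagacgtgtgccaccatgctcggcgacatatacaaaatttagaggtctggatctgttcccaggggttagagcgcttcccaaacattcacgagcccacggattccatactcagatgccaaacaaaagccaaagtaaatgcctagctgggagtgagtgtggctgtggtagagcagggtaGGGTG

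*Mccc2*, chr13:100015640-100015889, minus strand: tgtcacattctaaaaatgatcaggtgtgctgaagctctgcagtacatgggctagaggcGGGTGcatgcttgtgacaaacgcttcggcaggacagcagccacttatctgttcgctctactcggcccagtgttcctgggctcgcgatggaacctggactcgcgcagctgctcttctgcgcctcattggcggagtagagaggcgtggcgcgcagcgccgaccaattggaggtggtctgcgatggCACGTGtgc

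Both strands of 12 windows for 9 genes were searched. CACGTG was present in 1 of 12 windows, against 6.02% of all 32851 promoters of this length in the table. CACCC was present in 7 of 12, against 52.0% of all promoters, and TGATGNAA, an element bound by C/EBP and ATF factors, in 0 of 12, against 3.45%. Matches are described as letters only, and no binding was measured. The *Bcat2* window lies within the antisense gene *0610005C13Rik*, and a second *Bcat2* window lies wholly in exons of the gene.

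*Bcat2* (ENSMUSG00000030826, mm10 chr7:45570153-45589711, plus strand) encodes the aminotransferase that moves the amino group of leucine, isoleucine and valine to 2-oxoglutarate in mitochondria of most tissues outside the liver, fat and muscle among them. In F0 its level was 152 and 188 CPM in the CD libraries and 108 and 98.7 CPM in the LPD libraries. Both LPD libraries lay below both CD libraries. The mean fell by 39.1%, from 170 ± 25.5 (SD, n = 2) to 103 ± 6.74 CPM (SD, n = 2), a log2 fold change of -0.72 (SE 0.12, 95% interval -0.98 to -0.45, edgeR quasi-likelihood test with Benjamini-Hochberg adjustment over all genes, adjusted p = 0.0200). This was 1 of the 10 genes called in F0, against a background of 2.5% of the 14581 genes tested (1.18% higher, 1.32% lower). Leaving out F0-CD replicate 2, the library with the higher level, gave -0.55 (adjusted p = 0.0627), and leaving out F0-LPD replicate 2 gave -0.65 (adjusted p = 0.0916), so the call rests on these libraries. With limma on log2 RPKM the value was -0.76 (adjusted p = 0.0610). Intron reads, a second readout of the gene in the same libraries, numbered 208 and 313 on CD and 203 and 162 on LPD, and introns held 13.7% ± 0.706 of the reads on *Bcat2* on CD and 16.3% ± 0.289 on LPD (SD, n = 2 each). Of its exon bases 15.9% are shared with *0610005C13Rik* on the opposite strand, which had 0 to 17 reads. With exon and intron reads counted together the log2 fold change was -0.66 (adjusted p = 0.0494).

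In F1, *Bcat2* was at 167, 190 and 188 CPM in the sons of CD fathers and at 168, 167 and 176 CPM in the sons of LPD fathers. The groups overlapped. The log2 fold change was -0.10 (SE 0.08, 95% interval -0.28 to 0.09, edgeR adjusted p = 0.641). In a fit of all 10 libraries the log2 fold change in F1 was less negative than that in F0 by 0.61 (SE 0.15). The unadjusted p was 0.0011 and the adjusted p 0.0615 in edgeR. The difference between generations therefore missed the threshold, while under 5 of 9 other settings it passed it.

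**Figure D1:**
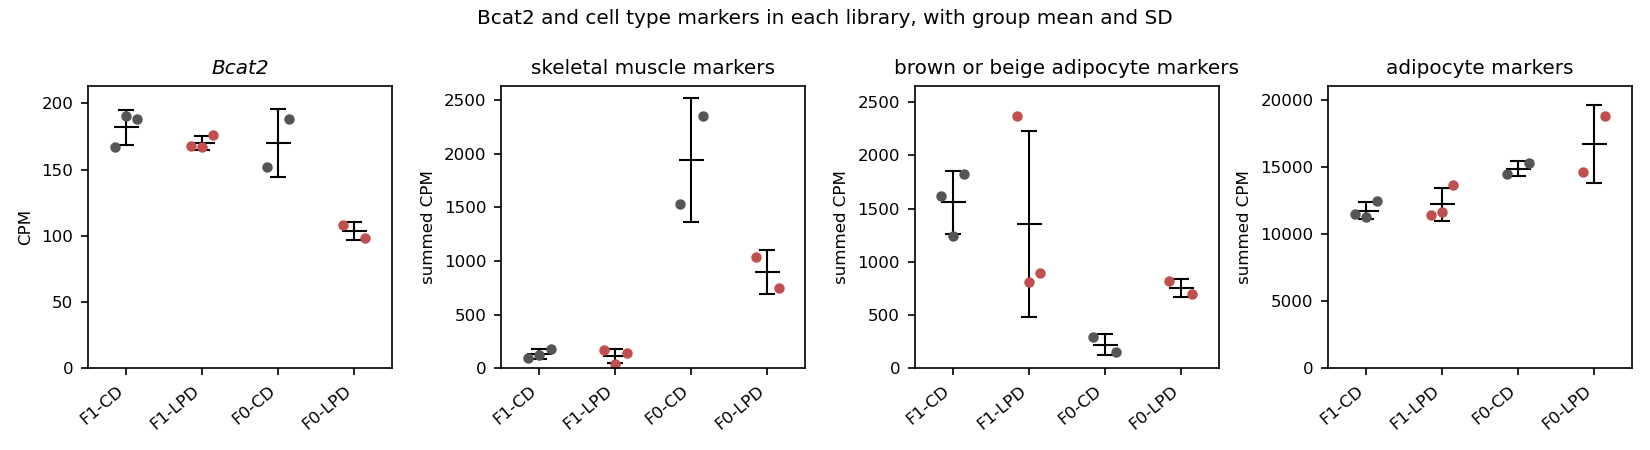
*Bcat2* in CPM and the summed CPM of skeletal muscle, brown or beige adipocyte and adipocyte markers (vertical axes) in F1-CD, F1-LPD, F0-CD and F0-LPD (horizontal axis). Points are libraries, the long bar is the group mean and the error bar the SD. Among the 4 F0 libraries *Bcat2* and the muscle sum are both lower on LPD, while the beige sum is higher on LPD.

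Markers of other cells moved with diet in the same F0 libraries. The 10 skeletal muscle markers summed to 1529 and 2347 CPM in F0-CD and to 1039 and 749 CPM in F0-LPD, and 5 of 10 (*Acta1*, *Tnnt3*, *Myh1*, *Myh2*, *Myh7*) passed the threshold as lower. The order of the 4 libraries by this sum was their order by *Bcat2*. In F1 the same sum was 43.4 to 180 CPM, below every F0 library, while *Bcat2* stood at 167 to 190 CPM. The sum of the 8 brown or beige adipocyte markers went the other way in F0, from 151 to 291 CPM on CD to 695 to 816 CPM on LPD. Of these markers 6 of 8, *Ucp1* among them, passed the threshold as higher. *Ppargc1a* had the lower mean on LPD, 16.3 against 21.3 CPM, and was not called (log2 fold change -0.40, edgeR adjusted p = 0.343). Adipocyte markers summed to 14466 to 15291 CPM on CD and 14659 to 18772 CPM on LPD. No marker in these lists was at 0 reads in all libraries of a group. In F1, 3 of 5 macrophage and 2 of 4 epithelial markers were lower on LPD, 1 of 8 brown or beige markers was higher (*Ppargc1a*), and 0 of 8 lymphocyte, 4 endothelial, 6 fibroblast and 9 tested muscle markers were called. In F0, 1 of 8 lymphocyte markers was higher (*Ms4a1*), 1 of 5 macrophage (*Cd163*), 1 of 6 fibroblast (*Dcn*) and 1 of 8 adipocyte markers (*Retn*) were lower, and 0 of 4 endothelial and of the 1 epithelial marker tested were called. The part of these cells in the fall of *Bcat2* was not tested, and in bulk tissue fewer cells of a type and less RNA per cell cannot be told apart.

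In the keto acid dehydrogenase complex no subunit was called in either generation, except that 2 other settings called *Bckdhb* in F0. *Bckdha* (ENSMUSG00000060376, chr7:25629946-25658981, minus strand) encodes the alpha subunit of the decarboxylating E1 enzyme. In F1 it was at 242, 217 and 232 CPM on CD and 223, 179 and 205 CPM on LPD. The groups overlapped, with a log2 fold change of -0.19 (SE 0.10, edgeR adjusted p = 0.391). In F0 it was at 196 and 191 CPM on CD and 231 and 219 CPM on LPD. Here both LPD libraries were the higher, at 0.22 (SE 0.09, adjusted p = 0.288). The interaction of generation and diet was -0.42 (SE 0.14, unadjusted p = 0.0128, edgeR adjusted p = 0.215). Only 69.2% to 76.9% of the exon reads on *Bckdha* matched uniquely, and 61.7% of its exon bases are shared with *B3gnt8* on the opposite strand, which had 75 to 140 reads. Whether counting used the strand is not stated, so its values are uncertain. Unique reads gave -0.15 in F1 and 0.18 in F0.

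*Bckdhb* (ENSMUSG00000032263, chr9:83925145-84124240, plus strand) encodes the E1 beta subunit, the partner of *Bckdha*. Its F1 levels were 52.9, 52.6 and 59.0 CPM on CD and 62.3, 58.3 and 57.0 CPM on LPD, which overlapped (log2 fold change 0.11, SE 0.09, edgeR adjusted p = 0.613). Its F0 levels were 46.7 and 51.5 CPM on CD and 52.0 and 68.4 CPM on LPD. The spread within F0-LPD was wider than the gap between the diets' nearest libraries (0.29, SE 0.13, adjusted p = 0.333). Without F0-LPD replicate 2, the higher of the pair, it was 0.079. The replicate block (0.29, edgeR adjusted p = 0.0450) and the exon share taken as a covariate (0.55, edgeR adjusted p = 0.00585) put it past the threshold. Both of these F0 fits had hardly any residual spread left. Over all 14581 genes the block called 656 higher and 735 lower, and the exon share 480 and 354. The main F0 fit called 172 higher and 192 lower. Introns held 78.2% to 83.4% of its reads in every library, the highest share among the 10 genes.

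*Dbt* (ENSMUSG00000000340, chr3:116513070-116549981, plus strand) encodes the E2 core that passes the acyl group to coenzyme A. In F1 it was at 102, 90.7 and 107 CPM on CD and 134, 101 and 122 CPM on LPD. That is the highest log2 fold change of the 10 genes in F1, 0.26 (SE 0.11, 95% interval 0.02 to 0.50), with an unadjusted p of 0.0386 and an edgeR adjusted p of 0.294, and the groups overlapped. Once the libraries' exon shares were entered as a covariate, it was -0.06. These shares did not overlap between the F1 diets, so that fit can hardly tell exon share from diet. In F0 it was at 79.8 and 95.8 CPM on CD and 77.1 and 85.5 CPM on LPD (-0.11, SE 0.11, adjusted p = 0.704).

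*Bckdk* (ENSMUSG00000030802, chr7:127904082-127910221, plus strand) encodes the kinase that inactivates the complex. It was at 82.1, 81.5 and 70.9 CPM in F1-CD and 83.8, 77.7 and 85.3 CPM in F1-LPD. In F0 the values were 77.7 and 74.9 CPM on CD and 78.0 and 79.1 CPM on LPD. The F0 groups did not overlap, yet the gap was below 1 CPM, and the log2 fold changes were 0.07 (SE 0.09, edgeR adjusted p = 0.761) in F1 and 0.04 (SE 0.08, adjusted p = 0.874) in F0.

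**Figure D2:**
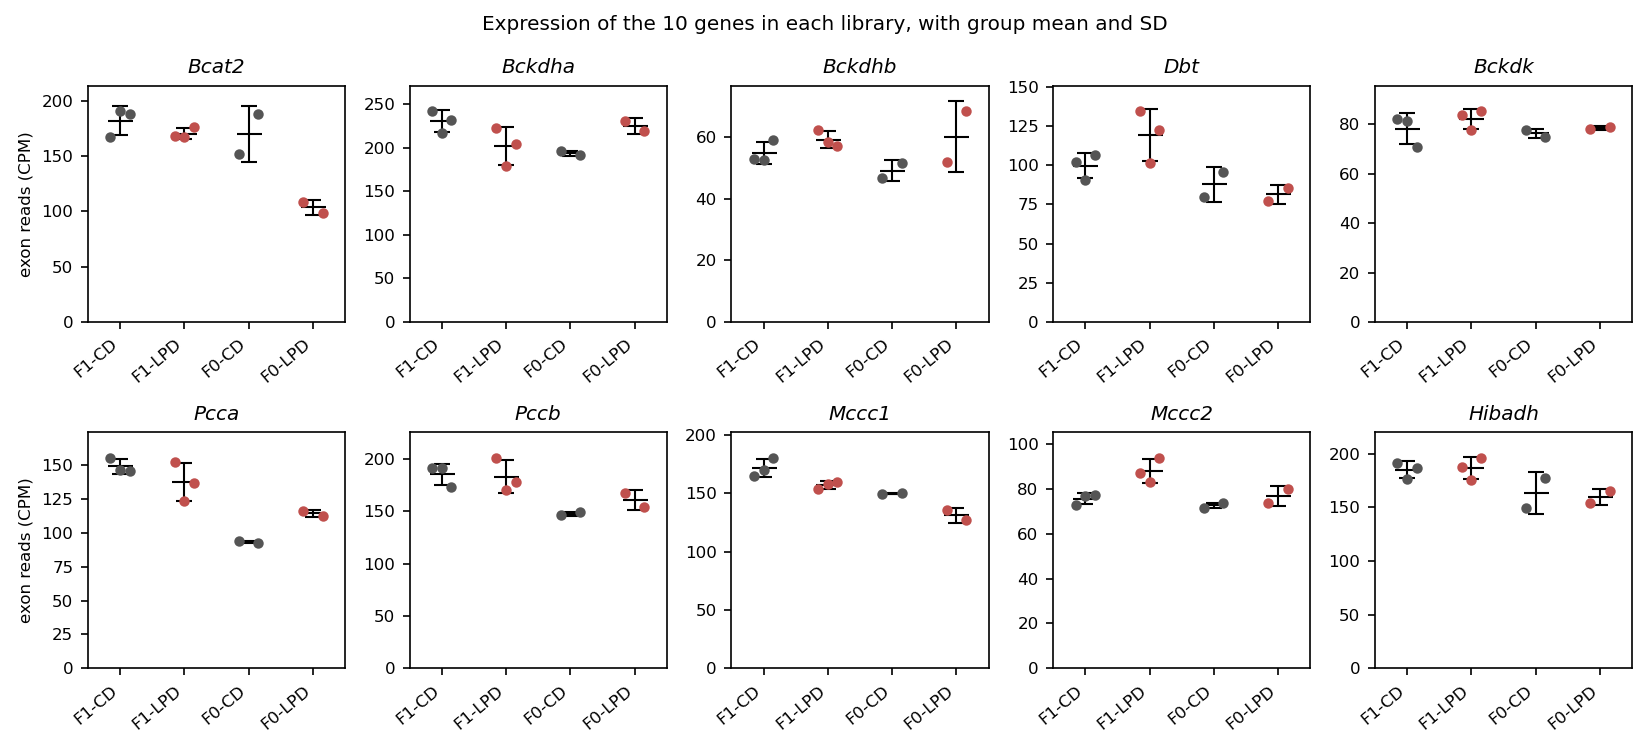
Exon reads in CPM (vertical axes, each from 0) of the 10 genes in the 4 groups (horizontal axis), 1 panel a gene. Points are libraries, the long bar is the mean and the error bar the SD. *Bcat2* in F0-LPD, at 98.7 to 108 CPM, is the one group that lies far below its control.

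On the leucine side, *Mccc1* (ENSMUSG00000027709, chr3:35959312-36000678, minus strand) and *Mccc2* (ENSMUSG00000021646, chr13:99948530-100015639, minus strand) encode the alpha and beta subunits of methylcrotonyl-CoA carboxylase, of which the alpha subunit carries biotin. *Mccc1* was at 165, 170 and 181 CPM in F1-CD and 153, 158 and 160 CPM in F1-LPD. *Mccc2* was at 72.6, 76.8 and 77.0 CPM in F1-CD and 86.9, 83.1 and 93.7 CPM in F1-LPD. The groups did not overlap for either subunit, and the subunits went opposite ways. *Mccc1* differed by -0.13 (SE 0.08, edgeR adjusted p = 0.474), and *Mccc2* by 0.22 (SE 0.09, unadjusted p = 0.0254, adjusted p = 0.250). With uniquely matching reads *Mccc1* differed by -0.08 (edgeR adjusted p = 0.696). Those reads, per exon length and library size, overlapped, at 13.0, 13.9 and 16.2 on CD and 14.1, 14.3 and 13.9 on LPD. Among all 14049 genes tested in F1, 20.1% did not overlap, 9.78% higher and 10.3% lower, so 1 gene of 10 in each direction is near the background.

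In F0 *Mccc1* was at 149 and 150 CPM on CD and 136 and 127 CPM on LPD, and *Mccc2* at 71.6 and 73.4 CPM on CD and 73.4 and 79.7 CPM on LPD. Both LPD libraries were again lower for *Mccc1* (-0.19, SE 0.09, edgeR adjusted p = 0.346) and slightly higher for *Mccc2* (0.08, SE 0.09, adjusted p = 0.753). In F0, where 2 libraries face 2, 46.6% of all genes did not overlap, 23% higher and 23.5% lower. Among the 10 genes, 6 were higher (*Bckdha*, *Bckdhb*, *Bckdk*, *Pcca*, *Pccb*, *Mccc2*) and 2 lower (*Bcat2*, *Mccc1*) in this sense. The nearest *Mccc2* libraries were at 73.4 CPM on both diets, apart only in later decimals. By the authors' RPKM, which is scaled otherwise, *Bckdhb*, *Bckdk*, *Pccb* and *Mccc2* overlapped in F0. Of the reads on *Mccc1*, 77.3% to 84.7% matched uniquely.

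For propionyl-CoA, where the valine and isoleucine routes meet, *Pcca* (ENSMUSG00000041650, chr14:122534324-122891100, plus strand) encodes the biotin-carrying alpha subunit of propionyl-CoA carboxylase. It was at 155, 146 and 145 CPM in F1-CD and 152, 123 and 136 CPM in F1-LPD, which overlapped (log2 fold change -0.12, SE 0.09, edgeR adjusted p = 0.593). In F0 it was at 93.7 and 92.4 CPM on CD and 116 and 112 CPM on LPD. The F0 replicates were tight and apart, with a difference of 0.30 (SE 0.08, 95% interval 0.11 to 0.48), an unadjusted p of 0.00635 and an adjusted p of 0.111. The interaction was -0.42 (SE 0.13, unadjusted p = 0.0079, adjusted p = 0.172). With exon and intron reads counted together the F0 difference was 0.14 (edgeR adjusted p = 0.403) and the interaction -0.10 (adjusted p = 0.720). Introns held 56.1% to 66.1% of its reads, 90.8% to 96.6% of its exon reads matched uniquely, and 4.63% of its exon bases are shared with *Ggact* on the opposite strand, which had 52 to 118 reads.

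*Pccb* (ENSMUSG00000032527, chr9:100982032-101034898, minus strand) encodes the beta subunit. In F1 it was at 192, 191 and 174 CPM on CD and 201, 170 and 178 CPM on LPD (-0.02, SE 0.09, edgeR adjusted p = 0.952). In F0 it was at 146 and 149 CPM on CD and 167 and 154 CPM on LPD (0.12, SE 0.09, adjusted p = 0.594). *Hibadh* (ENSMUSG00000029776, chr6:52546228-52640389, minus strand) encodes the dehydrogenase that oxidizes 3-hydroxyisobutyrate, an intermediate of valine. Its levels were 192, 177 and 187 CPM in F1-CD, 188, 175 and 196 CPM in F1-LPD, 149 and 177 CPM in F0-CD, and 155 and 165 CPM in F0-LPD. The diets overlapped in both generations, at 0.01 (SE 0.08, adjusted p = 0.970) in F1 and -0.03 (SE 0.11, adjusted p = 0.932) in F0.

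Read as a list in F1, 0 of 10 genes were called by edgeR, against a background of 1.17% of the 14049 genes tested (0.142% higher, 1.02% lower). At an unadjusted edgeR p under 0.05 were 2 of 10 (*Dbt* and *Mccc2*, both higher). Over all 14049 genes, 923 were higher and 1231 lower at that level. DESeq2 also called 0 of 10. The log2 fold changes were positive for 5 and negative for 5, with a median of -0.00, beside 0.01 over all genes tested. The 95% intervals of the 10 genes reached down to -0.40 (*Bckdha*) and up to 0.50 (*Dbt*), with SE from 0.08 to 0.11. Those of *Dbt* and *Mccc2* left out 0 before adjustment. A change within a gene's own interval is not excluded by these libraries. In F0, 6 values were positive and 4 negative, with a median of 0.06 beside 0.00 over all genes tested, and apart from *Bcat2* the intervals ran from -0.39 to 0.59. The interaction called 0 of 10 in edgeR, against a background of 1.25% (0.357% higher, 0.893% lower). *Bcat2*, *Pcca* and *Bckdha* were at an unadjusted p under 0.05. Of the 15111 genes tested, 742 were higher and 1145 lower at that level. DESeq2 called 1 of 10, *Bcat2*, in the interaction.

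**Figure D3:**
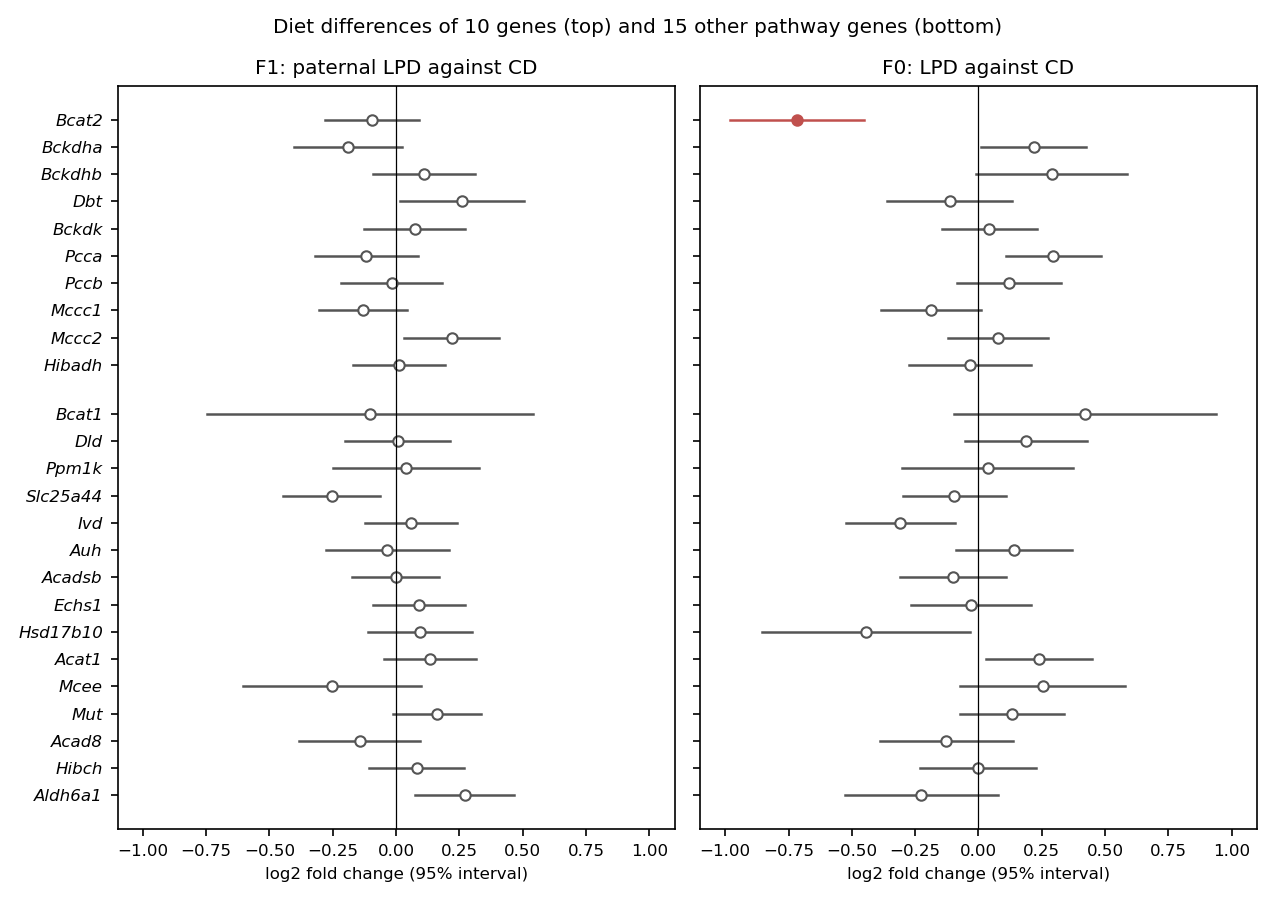
Log2 fold change, LPD against CD (horizontal axis), of the 10 genes and 15 other pathway genes (vertical axis), in F1 (left) and F0 (right). Points are edgeR estimates, lines are 95% intervals, and a filled point passed an adjusted p of 0.05. *Bcat2* in F0, at -0.72, is the one filled point.

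The 15 other genes of the route were not called in either generation by edgeR, with a median log2 fold change of 0.04 in F1 and -0.00 in F0. At an unadjusted p under 0.05 there was 1 higher and 1 lower in F1, and 1 higher and 2 lower in F0. Over all genes at that level, 923 of 14049 were higher and 1231 lower in F1. In F0 it was 1098 of 14581 higher and 1196 lower. The widest differences in F1 were those of *Aldh6a1*, *Slc25a44* and *Mcee*. *Aldh6a1*, the methylmalonate semialdehyde dehydrogenase of valine breakdown, was at 385, 377 and 423 CPM on CD and 479, 454 and 498 CPM on LPD, without overlap (0.27, edgeR adjusted p = 0.177). *Slc25a44*, which carries branched-chain amino acids into mitochondria, was at 120, 116 and 124 CPM on CD and 94.9, 96.3 and 111 CPM on LPD, also without overlap (-0.25, adjusted p = 0.195). *Mcee*, the methylmalonyl-CoA epimerase, had -0.25 (adjusted p = 0.496) and overlapped.

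In F0 the widest were *Hsd17b10*, *Bcat1* and *Ivd*. *Hsd17b10*, a dehydrogenase of isoleucine breakdown, was at 63.7 and 101 CPM on CD and 62.5 and 58.6 CPM on LPD (-0.44, edgeR adjusted p = 0.277), so that 1 CD library set the difference. *Ivd*, the isovaleryl-CoA dehydrogenase of leucine breakdown, was at 272 and 292 CPM on CD and 228 and 228 CPM on LPD, without overlap (-0.31, adjusted p = 0.142). *Bcat1*, the cytosolic aminotransferase, was low, at 6.80 and 7.78 CPM on CD and 7.98 and 11.7 CPM on LPD (0.42, adjusted p = 0.432).

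Neighbouring mitochondrial genes were counted for comparison. Of 18 nuclear genes for mitochondrial proteins, most of the citrate cycle and respiratory chain, 0 were called in F1 (median -0.02) and 1 in F0, *Idh3a* at 0.54 (edgeR adjusted p = 0.0269, median 0.13). Of 10 genes of the pyruvate dehydrogenase system, 0 were called in F1 (median -0.08) and 1 in F0, *Pdk4*, a kinase that turns that complex off as *Bckdk* does the branched-chain one, at 2.00 (adjusted p = 0.00223, median -0.02). Of 4 other biotin enzymes and biotin-handling genes, *Acacb* was lower in F1 at -0.68 (adjusted p = 0.0216, median -0.30), and 0 were called in F0 (median 0.12). *Idh3a*, *Pdk4* and *Acacb* are named after their values were seen.

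Levels of different genes can be compared per exon length only, here as the authors' RPKM, whose divisor is all reads of the library. *Bckdha* was highest in all 4 groups by total exon reads, at 58.5 ± 3.03 in F1-CD, 45.7 ± 2.55 in F1-LPD, 53.8 ± 0.204 in F0-CD and 60.1 ± 1.05 RPKM in F0-LPD. *Hibadh* came next, at 36.1 to 40.1 RPKM as group means, and then *Pccb*, at 28.1 to 32.2 RPKM. In each of the 4 groups these ranges lay apart from each other. *Bcat2* followed in F1-CD, F1-LPD and F0-CD, at 22.5 ± 2.28, 18.8 ± 1.65 and 23.0 ± 3.75 RPKM. In F0-LPD it stood below *Bckdhb* and *Mccc2*, at 13.5 ± 0.592 RPKM, where its range overlapped those of *Mccc2* and *Dbt*. *Bckdhb*, *Dbt* and *Mccc2* lay at 12.3 to 17.0 RPKM and mostly overlapped their neighbours. *Bckdk* was at 9.60 to 10.9 RPKM and *Pcca* at 9.43 to 13.8 RPKM. *Mccc1* was lowest in all groups, at 6.08 to 7.58 RPKM, over an exon length of 10952 bases, the longest of the 10. With uniquely matching reads per exon length all 10 genes kept their rank in F0-CD and 8 of 10 in each of the other groups, and in F1-LPD *Hibadh* then stood above *Bckdha* as a mean.

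Subunits of 1 enzyme were set beside each other as the log2 ratio of RPKM within a library, which does not depend on the library's divisor. The E1 alpha subunit stood above its beta partner everywhere. *Bckdha* over *Bckdhb* was 2.00 ± 0.11 in F1-CD, 1.69 ± 0.13 in F1-LPD, 1.91 ± 0.12 in F0-CD and 1.84 ± 0.34 in F0-LPD, and the F1 groups did not overlap, whereas with uniquely matching reads they did (1.61, 1.54 and 1.37 on CD, 1.38, 1.06 and 1.28 on LPD). *Bckdha* over *Dbt* was 2.07, 2.08 and 1.94 in F1-CD and 1.55, 1.64 and 1.56 in F1-LPD. All F1-LPD libraries lay below all F1-CD libraries. In F0 it was 2.11 and 1.82 on CD and 2.40 and 2.17 on LPD, the opposite order, with a difference of the means of 0.32 that became 0.18 without F0-CD replicate 2 and 0.21 without F0-LPD replicate 1. The kinase stood at 0.157 to 0.224 of *Bckdha* as a linear ratio over the 10 libraries by total exon reads. With uniquely matching reads it stood at 0.227 to 0.312.

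For *Mccc1* over *Mccc2* the log2 ratio was -0.78, -0.82 and -0.74 in F1-CD and -1.15, -1.04 and -1.20 in F1-LPD. In F0 it was -0.91 and -0.94 on CD and -1.08 and -1.30 on LPD. The ratio was thus lower on LPD in both generations, by 0.35 and 0.27 as differences of the means, with no overlap. Over all genes tested, 20.1% did not overlap between the diets in F1 and 46.6% in F0. Those shares are for single genes, and no background was computed for this ratio or those above. Without F0-LPD replicate 2 the F0 difference was -0.16. *Pcca* over *Pccb* was -1.23 ± 0.07 in F1-CD, -1.33 ± 0.04 in F1-LPD, -1.58 ± 0.03 in F0-CD and -1.40 ± 0.05 in F0-LPD, and with intron reads included its F1 difference turned from -0.10 to 0.07. An exact two-sided permutation test cannot go below 0.1 with 3 against 3 or 0.333 with 2 against 2, so no p is given for these ratios.

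**Figure D4:**
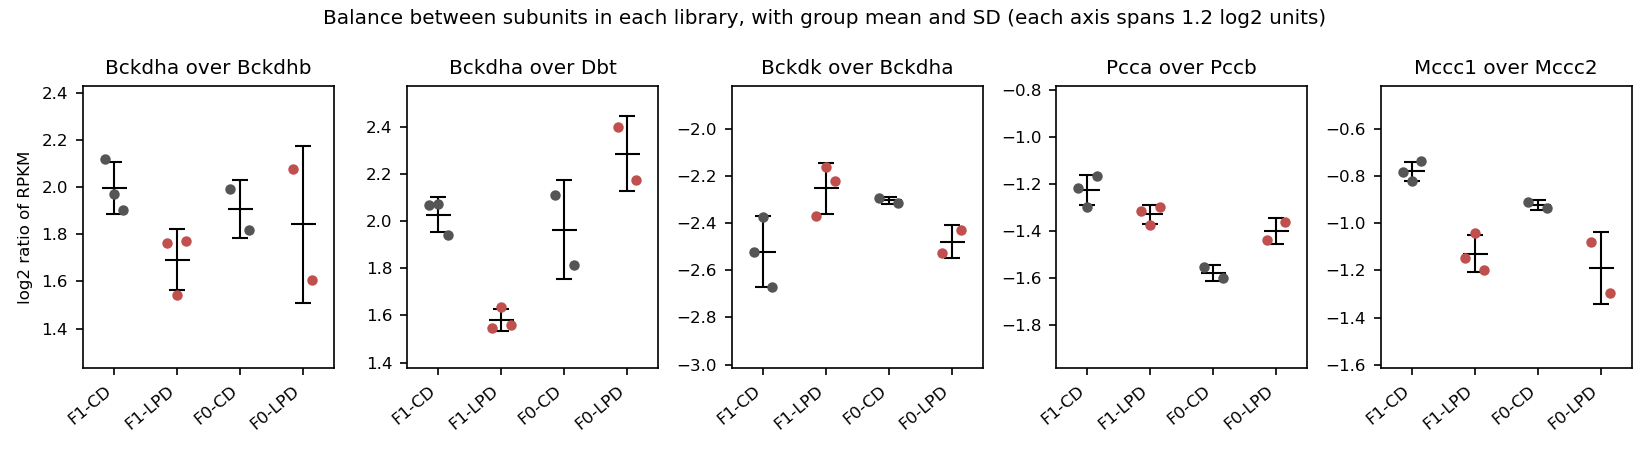
Log2 ratio of RPKM between subunits (vertical axes, each spanning the same 1.2 log2 units) in the 4 groups (horizontal axis). Points are libraries, the long bar is the mean and the error bar the SD. *Mccc1* over *Mccc2* is lower on LPD in both generations, while *Bckdha* over *Dbt* is lower on LPD in F1 and higher in F0.

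The 10 genes did not vary as a block across libraries. Over 45 pairs, with each gene centred within its generation over the 10 libraries, Pearson's r was positive for 28, with a median of 0.08 and a range of -0.66 to 0.94. The points share library depth and diet groups, so r is a description. The highest values were those of *Bckdha* with *Pcca* (0.94), *Pcca* with *Pccb* (0.81) and *Bcat2* with *Mccc1* (0.80), and the lowest those of *Bckdhb* with *Mccc1* (-0.66) and *Bcat2* with *Pcca* (-0.61). Among 11585 other genes, the 5 whose pattern was most like the mean of the 10 were *Aox1* (r = 0.92), *Shmt1* (0.91), *Ypel1* (0.91), *Ccdc191* (0.91) and *Pwp1* (0.89).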

How the data were processed

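Mouse iWAT RNA-seq libraries (rRNA-depleted, strand-specific kit) were mapped to mm10 by the authors in CLC Genomics Workbench. The annotation release and strand setting are not given in the sources used here. The deposited counts are raw reads per gene on exons, introns or the whole gene, total and uniquely matching. The deposited RPKM was computed by the authors from total exon reads, exon length and all reads of a library (14462489 to 19039664). The deposited TPM was used only to rank genes.

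Total exon reads were tested in R 4.3.3 with edgeR 4.0.16 (filterByExpr, TMM, quasi-likelihood F test, two-sided, Benjamini-Hochberg over all genes, threshold 0.05), separately in F1 (14049 genes) and F0 (14581 genes), with the interaction over all 10 libraries (15111 genes). SE was the log2 fold change over the square root of F. Between libraries of a group the variance was 4.59 to 13.1 times that of counting error (chi-square per degree of freedom).

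The genes, lists and tests were chosen with earlier results of these data known. Named beside the 10 genes were the 3 other pathway genes with the largest difference per generation and the 5 genes most like the mean standardised log2 CPM (0.5 added) of the 10, with 5 CPM or more on average. Alternatives were DESeq2 1.42.0 and its size factors, total exon reads as scale, other filters, unique reads, all reads on the gene, limma 3.58.1 on log2 RPKM (0.1 added), exon share as covariate, 1 fit of all groups, a replicate block and each library left out. 1 gene of the pathway list is not reported here. Gene overlaps come from GENCODE M21.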

Additional observations from a re-analysis of the deposited data

Results flagged for a closer look

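For 3 of the 5 ratios examined, 2 between subunits of 1 complex and 1 of the kinase to its substrate, the LPD libraries lay on opposite sides of their controls in the F1 and F0 generations, with no overlap in either by total exon reads. Over all genes tested, 20.1% did not overlap between the diets in F1 and 46.6% in F0. Those shares are for single genes, within 1 generation and in either direction. No background was computed for ratios or for opposite sides in F1 and F0. As the difference of the group means of the log2 ratio of RPKM, LPD minus CD, *Bckdha* over *Dbt* was -0.45 in F1 and 0.32 in F0, where leaving out F0-CD replicate 2 gave 0.18 and leaving out F0-LPD replicate 1 gave 0.21. *Bckdk*, the kinase, over *Bckdha*, whose protein it phosphorylates, was 0.27 in F1 and -0.18 in F0, and in F1 the nearest libraries of the groups were at -2.37 on both diets, apart only in the next decimal. *Pcca* over *Pccb* was -0.10 in F1 and 0.18 in F0, and its nearest F1 libraries were at -1.30 on both diets. With uniquely matching reads the F1 groups overlapped for both of these ratios, and stayed apart for *Bckdha* over *Dbt*. With intron reads included, *Pcca* over *Pccb* was 0.07 in F1 and 0.02 in F0, the same direction in both. The difference between generations was not tested for any of the 3 ratios, and generation, age and library set cannot be told apart. *Bckdha* enters 2 of the 3 ratios, and 69.2% to 76.9% of its reads matched uniquely.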

How the results depend on the processing

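In F1, 0 of the 10 genes were called under every alternative run. With exon share as a covariate this says little, since the share did not overlap between the F1 diets. In F0, the count of 1 (*Bcat2*) became 2 with exon share as a covariate (*Bcat2* -0.63, *Bckdhb* 0.55), 0 with limma on log2 RPKM, and 0 to 1 with each library left out. *Bcat2* lost its call in 1 of 11 alternatives and 2 of 4 leave-one-out fits, with log2 fold changes from -0.86 to -0.55. A group left with 1 library was assumed to vary like the others. With exon share as a covariate the F0 fit also had hardly any residual spread left. It called 480 of all 14581 genes higher and 354 lower, against 172 and 192 in the main result. In the interaction, 0 became 1 (*Bcat2*) with total exon reads as scale (0.68), DESeq2 (0.62), no filter (0.61), at least 10 reads (0.63) and unique reads (0.61), and 0 to 1 with each library left out (past the threshold without F0-CD replicate 1, 0.77, and F1-CD replicate 3, 0.64). Other pathway genes called in F0 were 0 to 1 on leaving out libraries (1 without F0-CD replicate 1).

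With the replicate block, the F0 count became 3 (*Bcat2* -0.71, *Bckdhb* 0.29, *Pcca* 0.29), with hardly any residual spread left. Over all 14581 genes that fit called 656 higher and 735 lower, against 172 and 192 in the main result. The block changed no other call among the 10 genes. Same-numbered libraries, centred within their group, correlated at 0.00903 to 0.0736 in F1 and 0.0564 in F0. With 2 libraries a group, centring gives every F0 pair the same size of r. Whether libraries with the same number share a litter or a day is not stated, and these values cannot decide it.

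Some uncalled values changed sign. In F1 these were *Pccb* 0.035 (total exon reads), *Pcca* 0.029 (all reads on the gene), *Bckdhb* -0.050, *Bckdk* -0.085 and *Hibadh* -0.15 (limma, which also moved the median of all genes from 0.01 to -0.15), and *Bckdhb* -0.0094, *Dbt* -0.062 and *Hibadh* -0.037 (exon share). In F0 they were *Bckdk* -0.015 (limma), *Dbt* 0.087 and *Hibadh* 0.13 (exon share). In the interaction they were *Bckdk* -0.0087 (all reads), *Bckdk* -0.070, *Mccc1* -0.046 and *Hibadh* -0.067 (limma). Leaving out libraries, the range spanned 0 in F1 for *Pccb* (-0.089 to 0.033) and *Hibadh* (-0.035 to 0.053), in F0 for *Dbt* (-0.24 to 0.026) and *Hibadh* (-0.15 to 0.097), and in the interaction for *Bckdhb* (-0.38 to 0.024), *Bckdk* (-0.036 to 0.074) and *Hibadh* (-0.093 to 0.17). With intron reads included, a setting chosen after seeing the data, *Bckdk* over *Bckdha* in F0 was -0.11, *Pcca* over *Pccb* was 0.068 in F1 and 0.024 in F0, and *Mccc1* over *Mccc2* in F1 was -0.28. Over all genes, calls ranged from 1 to 234 higher (20 in the main result) and 14 to 564 lower (144) in F1, and from 30 to 656 higher (172) and 37 to 735 lower (192) in F0. The cause of these changes was not tested.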
